A study of Mus musculus with 8 samples.

Results

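The genes described here are 9 brakes on T cell signalling: the MAP kinase phosphatases Dusp1, Dusp2, Dusp4, Dusp5, Dusp6 and Dusp10, the Sprouty gene Spry1, and the regulators of G protein signalling Rgs1 and Rgs2. They were chosen by their gene symbols and are 9 of the 32285 genes in the files. All 9 were found. Their transcripts were counted in 29303 CD4 and 24286 CD8 T cells from the pancreas, out of 80470 cell barcodes in 8 libraries.

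A T cell receptor that binds its antigen switches on RAS and the MAP kinases ERK, JNK and p38. Dual-specificity phosphatases (the DUSP genes) remove the activating phosphates from these kinases, and several of them are transcribed in response to the same kinases, which makes them feedback inhibitors. Sprouty proteins hold back the path from receptors through RAS to ERK. RGS proteins speed up the hydrolysis of GTP by G protein alpha subunits and so shorten the signal of chemokine and other G protein-coupled receptors, which steer T cells into and out of tissue.

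The cells were T cells sorted as CD45+ CD3+ TCRβ+ from pancreas. The donors were NOD mice, which become diabetic through autoimmunity, and the cells were counted with 10x Genomics 3′ libraries. One library came from mice whose diabetes was active (over 600 mg/dl of blood glucose) and 1 from mice at onset (250 mg/dl), both harvested on day 1. The other 6 came from new onset mice (200 to 300 mg/dl) given either PPCA, which is nutlin-3 at 50 mg/kg and MK-1775 at 25 mg/kg, or the vehicle of ethanol, Tween 20 and PEG300, with 1 library of each on days 2, 3 and 4. Nutlin-3 blocks MDM2, the inhibitor of p53, and MK-1775 blocks the cell cycle kinase WEE1. Treatment was daily from day 1, with a harvest on the day after the last dose. The days in the sample names are read here as harvest days, which the labels do not state for these libraries. All mice were labelled as female NOD mice with spontaneous diabetes. Their age was 3 to 4 months in one label and 3 to 5 months in the protocol. The number of mice behind a library is not given in the sources used here, so a p-value below measures the spread between libraries.

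Each library held 36934580 to 67603740 UMIs (unique molecular identifiers, 1 per captured transcript), with a median of 3901 to 6198 UMIs per CD4 cell and 4374 to 7252 per CD8 cell. A CD4 cell had at least 1 UMI of Cd4 and none of Cd8a or Cd8b1, a CD8 cell the reverse, and both had at least 2 UMIs over 6 genes of the T cell receptor complex. Summed over these 6 genes, the level was 5545 to 7343 CPM (UMIs per 1000000 UMIs of the gated cells) in CD4 and 5209 to 7043 CPM in CD8 cells. The 6 B and myeloid genes, over which a kept cell had at most 1 UMI, stood at 2.05 to 3.59 and 9.75 to 18.0 CPM. Although all mice were labelled female, 4 libraries (vehicle of day 2, both of day 3 and PPCA of day 4) carried Y-linked transcripts and almost no Xist. The vehicle and PPCA libraries of days 2 and 4 therefore differed in sex, and those of day 3 did not. Whether the arm and day labels of these libraries are right cannot be told from the files, and every comparison below, PPCA against vehicle above all, takes them as given. Of 79727 distinct barcodes, 740 (0.928%) were found in more than 1 library, with 14 to 41 shared by a pair of libraries.

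Each of the 9 genes had UMIs in both classes of all 8 libraries. The median over libraries in CD4 cells was highest for Dusp2, a nuclear phosphatase of activated lymphocytes, at 164 CPM. Below it came Dusp10, which acts on JNK and p38, at 126 CPM, the early response phosphatase Dusp1 at 109 CPM, Rgs1 at 77.7, Rgs2 at 58.8, the cytoplasmic ERK phosphatase Dusp6 at 29.7, the nuclear ERK phosphatase Dusp5 at 20.4, Spry1 at 5.69 and Dusp4 at 5.51 CPM. These are levels of 3′ tags, in which a transcript is counted once whatever its length. The ranges of every 2 neighbours in this order overlapped over the 8 libraries. In CD8 cells Dusp2 again stood first, at 284 CPM, followed by Rgs1 (108), Dusp10 (70.8), Dusp1 (54.2), Dusp6 (35.1), Rgs2 (27.1), Dusp5 (17.7), Dusp4 (5.00) and Spry1 (4.32 CPM). Here Dusp4, with 8.25 CPM at most, lay below the lowest Dusp5 value of 9.23 CPM, and all other neighbours overlapped. Dusp4 and Spry1 rest on few transcripts, with as few as 32 UMIs in a library and class.

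**Figure D1:**
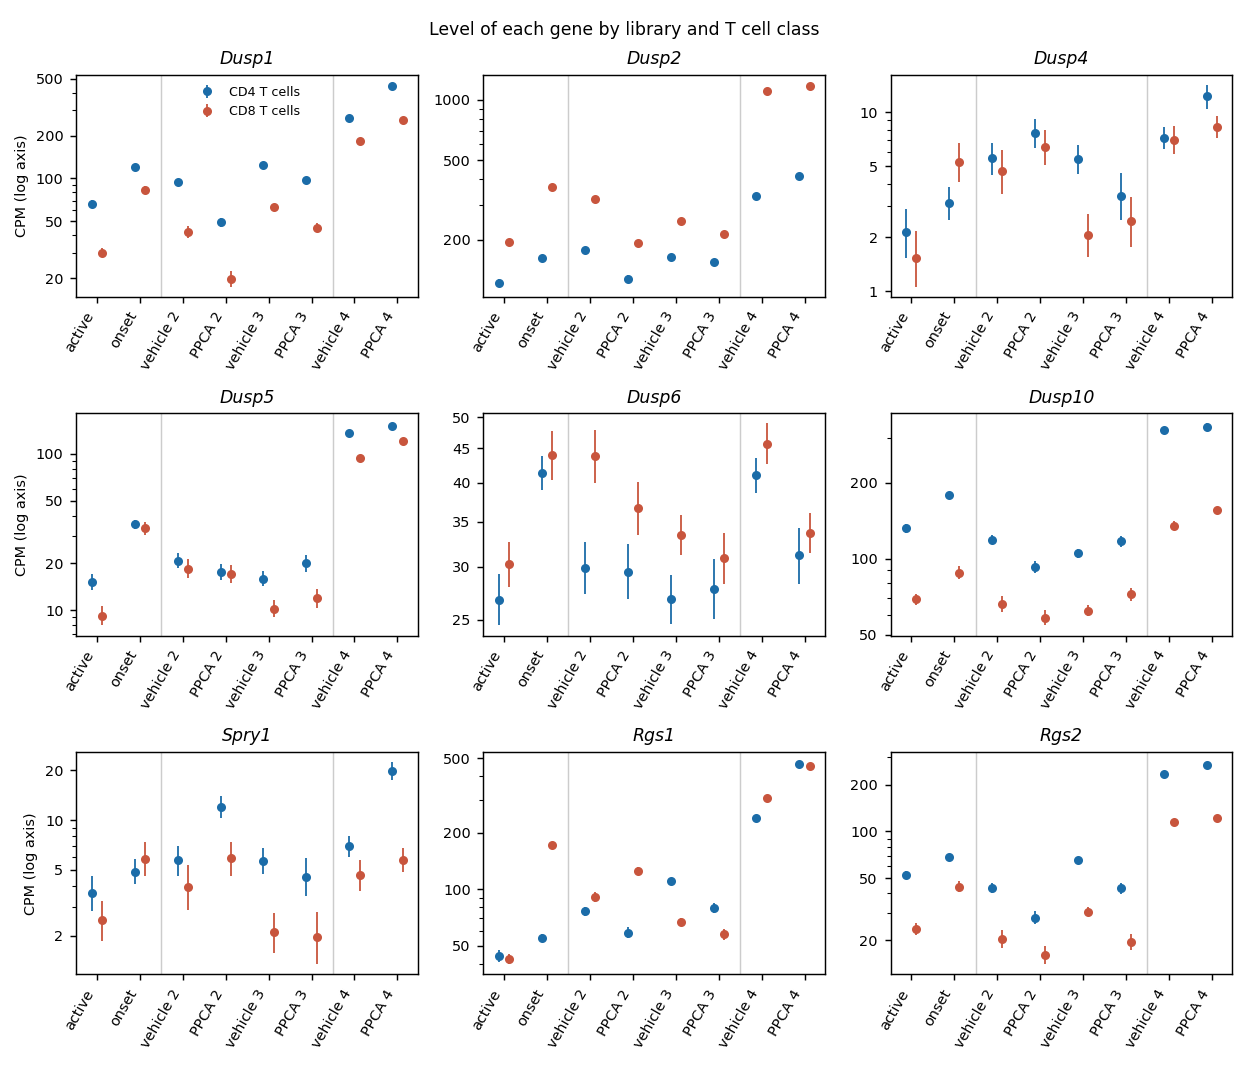
Level of each gene in CPM (log axis) in the 8 libraries, for CD4 (blue) and CD8 (red) T cells; bars are exact Poisson 95% intervals and cover counting error only. In 6 genes the 2 day 4 libraries lie above all 6 others in both classes, Dusp4 does so in CD8 cells alone, and Dusp6 and Spry1 do so in neither, against 9.47% of all genes in CD4 and 8.03% in CD8 cells.

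Most members differed by the day of harvest. On day 4, with either treatment, most of these genes stood several times above their level on days 2 and 3, and above the active and onset libraries of day 1 as well. Dusp5 in CD4 cells measured 15.2 CPM in the active and 35.4 CPM in the onset library, 20.8 and 17.6 CPM with vehicle and PPCA on day 2, 15.9 and 19.9 CPM on day 3, and 136 and 150.0 CPM on day 4. In CD8 cells the same series was 9.23, 33.4, 18.5, 17.0, 10.2, 11.9, 94.5 and 120.2 CPM. The 2 day 4 libraries stood apart from all others in both classes. Of the members, 6 did so in CD4 and 7 in CD8 cells, where 9.47% and 8.03% of genes averaging at least 1 CPM did. A level summed over cells cannot tell more cells with the transcript from more transcripts per cell. With each cell thinned to 2000 UMIs, Dusp5 was found in 21.3% and 23.4% of CD4 cells on day 4 and 2.85% to 6.75% elsewhere. In CD8 cells the shares were 14.1% and 18.1% against 1.76% to 7.47%. Such a share also rises with the transcripts per cell. Against the mean of days 2 and 3, with treatment in the model, Dusp5 was 8.61-fold higher in CD4 (log2 3.11, SE 0.112, adjusted p = 9.46e-05) and 8.54-fold higher in CD8 cells (log2 3.09, SE 0.116, adjusted p = 7.09e-05, both edgeR). These p-values rest on the scatter between the 2 libraries of a day, not between repeated harvests. Anything else that the 2 libraries of a day share cannot be told apart from the day.

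Rgs2, which acts mainly on Gq, measured 52.4 and 68.3 CPM in the active and onset CD4 cells, 43.1 and 27.9 with vehicle and PPCA on day 2, 65.3 and 43.0 on day 3, and 235 and 269.6 CPM on day 4. Dusp1 in CD4 cells measured 66.7, 121, 95.02, 49.5, 124, 97.5, 264 and 444 CPM in the same order of libraries. Rgs1, which limits chemokine receptor signals, measured 44.1, 55.0, 76.1, 58.8, 110.4, 79.3, 239.9 and 464 CPM. In each of these 3 genes the day 4 libraries again lay above all others, and for Dusp1 and Rgs1 the PPCA library of day 4 lay well above the vehicle library of that day. The fold over days 2 and 3 in CD4 cells was 6.63 for Rgs2 (adjusted p = 0.000386), 4.89 for Rgs1 (adjusted p = 0.0036) and 4.56 for Dusp1 (adjusted p = 0.00477, edgeR).

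Across the set, 7 of 9 members were higher on day 4 in CD4 cells, where 8.52% of all genes tested were higher, and 8 of 9 in CD8 cells, against 9.36% of all genes. None was lower. All 9 passed the filter on low counts here. The median log2 fold change was 1.76 over the members and -0.01 over all genes tested in CD4 cells, and 2.35 against -0.02 in CD8 cells. Among the other phosphatases, Dusp10 rose 3.39-fold in CD4 and 2.51-fold in CD8 cells and Dusp2 2.70-fold and 5.36-fold. Dusp6 stood almost level: its fold was 1.41 in CD4 (adjusted p = 0.0293) and 1.22 in CD8 cells (adjusted p = 0.0644, edgeR), and the 8 libraries spanned only 26.8 to 41.3 and 30.2 to 45.7 CPM. Dusp4, a nuclear phosphatase of ERK and JNK, was 2.40-fold higher in CD8 cells (adjusted p = 0.00497), and Spry1 1.82-fold (adjusted p = 0.0389). In CD4 cells neither passed the test, at 1.92-fold for Dusp4 (adjusted p = 0.0769) and 1.98-fold for Spry1 (adjusted p = 0.0954, edgeR). These fits had 2 residual degrees of freedom. The call of Dusp6 in CD4 cells was lost without the day 2 libraries (adjusted p = 0.0890) and without those of day 3 (0.0832). In CD8 cells the calls of Dusp4 and Spry1 were lost without the day 3 libraries (adjusted p = 0.108 and 0.361, edgeR), and that of Spry1 with DESeq2 (adjusted p = 0.0997).

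The promoters of the 3 genes with the largest day 4 difference in CD8 cells are printed here because these members moved together; the RefSeq promoter table (GRCm38.p6) held 7 of the 9 members, without Dusp4 and Rgs1. Each line gives the 250 bases before the start site, 5′ to 3′ on the strand of the gene. Capitals mark the cAMP response element (CRE) TGACGTCA, its core TGACG or CGTCA, and CArG boxes, the sites of serum response factor.
Dusp1: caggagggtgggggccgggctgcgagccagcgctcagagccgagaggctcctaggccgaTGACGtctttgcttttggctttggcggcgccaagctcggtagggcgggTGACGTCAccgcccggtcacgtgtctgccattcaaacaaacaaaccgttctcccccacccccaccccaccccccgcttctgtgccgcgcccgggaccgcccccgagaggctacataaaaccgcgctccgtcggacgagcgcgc
Dusp5: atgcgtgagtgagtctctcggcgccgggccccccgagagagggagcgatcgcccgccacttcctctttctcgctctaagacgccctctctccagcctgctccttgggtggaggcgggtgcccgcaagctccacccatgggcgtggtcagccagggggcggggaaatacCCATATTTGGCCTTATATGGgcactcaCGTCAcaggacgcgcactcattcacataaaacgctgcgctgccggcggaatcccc
Rgs2: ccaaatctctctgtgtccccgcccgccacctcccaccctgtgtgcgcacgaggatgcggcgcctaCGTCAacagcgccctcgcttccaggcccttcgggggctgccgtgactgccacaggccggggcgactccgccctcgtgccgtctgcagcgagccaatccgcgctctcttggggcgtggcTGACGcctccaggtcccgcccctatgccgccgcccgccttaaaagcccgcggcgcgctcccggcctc

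These stretches are chr17:26508473-26508722 on the minus strand for Dusp1, chr19:53528895-53529144 on the plus strand for Dusp5 and chr1:144004150-144004399 on the minus strand for Rgs2. The full CRE of Dusp1 runs from 143 to 136 bases before the start site. The CArG boxes of Dusp5 lie end to end, from 82 to 73 and from 72 to 63 bases before it, with a CRE core from 55 to 51. Rgs2 has a CRE core from 185 to 181 and from 67 to 63 bases before its start. Of the 32817 promoter windows of 300 bases in the table (250 before and 50 after a start site, both strands searched), 1.79% held the CRE, 20.8% a CRE core, which includes those within a full CRE, and 1.63% a CArG box. The motif GCGNGGGCG of EGR factors, in 5.56% of windows, was found in Dusp2 and Rgs2. The AP-1 motif TGANTCA (7.81% of windows), the NR4A motif AAAGGTCA (1.51%) and the NF-kB motif (4.504%) were in none of the 7 windows. A match in letters is no evidence that a factor binds there.

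Other genes of these paths are read against all genes tested, of which 8.52% were higher and 5.44% lower on day 4 in CD4 cells and 9.36% and 7.44% in CD8 cells. Of the 15 early genes induced by ERK, 8 were higher on day 4 in CD4 and 10 in CD8 cells and none was lower. They included Nr4a1, a readout of receptor signals, with a log2 fold change of 2.67 in CD4 and 3.06 in CD8 cells, Junb (1.97 in CD4) and Fos (2.59 in CD8). Of 26 genes of the MAP kinase cascade itself, 2 were higher and 1 lower in CD4 cells and 1 was higher and 1 lower in CD8 cells, no more than those shares. Rasgrp1, which loads RAS with GTP, had a log2 fold change of -0.58 and -0.42. Of 16 G protein-coupled receptors, 5 rose in each class, among them Cxcr4 (log2 2.29 in CD4, 1.40 in CD8), while 1 fell in CD4 and 4 in CD8 cells. Of the other DUSP, Sprouty, Spred and RGS genes, 1 of 20 tested was higher in CD4 cells, below the share of all genes, and 5 of 21 higher and 2 lower in CD8 cells, where Rgs16 rose by a log2 of 2.56.

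Part of the marker genes of handling was higher on day 4 too. The 10 genes of dissociation and stress, of which 1 (Fos) is also on the list of early genes, summed to 5085 and 6789 CPM in the day 4 CD4 cells against 2439 to 4471 CPM in the 6 other libraries. In CD8 cells the values were 4518 and 5636 against 2163 to 4065 CPM. The 6 genes of the glucocorticoid response, such as Tsc22d3, summed to 482 and 812 against 226 to 283 CPM in CD4 cells and to 473 and 790.5 against 234 to 311 CPM in CD8 cells. In either class, both day 4 libraries exceeded all others in 5 of the 10 stress genes, Fos, Jun, Jund, Atf3 and Ppp1r15a, and in 3 of the 6 glucocorticoid genes. None of the 5 heat shock genes on the stress list did so, with Hspa1a at 0.797 and 3.09 CPM against 0.858 to 113 CPM in CD4 cells. No mitochondrial rise was seen, with 24787 and 27527 CPM on day 4 within the 20829 to 44628 CPM of the other CD4 cells. The 12 genes of the exocrine and endocrine pancreas summed to 75.6 and 117 CPM on day 4 against 13.1 to 70.4 CPM in CD8 cells, where Ctrb1 and Cpa1 exceeded all others, and to 41.7 and 68.0 within 7.75 to 247 CPM in CD4 cells. The 4 further B cell markers were lower, at 107 and 138 against 176 to 222 CPM in CD4 and at 92.7 and 134 against 150.1 to 207 CPM in CD8 cells. Cd8a and Cd8b1 together were lower in the day 4 CD8 cells, at 881 and 934 against 1005 to 1798 CPM. The part of these transcripts in the day 4 difference was not tested.

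The rise was also present inside narrower sets of cells. A TCR-response positive cell had at least 1 UMI over Nr4a1, Nr4a2, Nr4a3, Egr1, Egr2 and Egr3 after each cell was thinned to 2000 UMIs, so that depth was equal. Such cells made up 47.4% and 52.3% of CD4 cells on day 4 and 12.9% to 26.9% in the other libraries, and 43.0% and 45.4% of CD8 cells against 10.3% to 24.9%. In either class both day 4 libraries exceeded all others in 3 of the 6 genes, Nr4a1, Nr4a2 and Egr1. Nr4a3, Egr2 and Egr3 overlapped, with Egr3 in CD4 cells at 14.4 and 17.2 against 14.8 to 27.3 CPM. Most positive cells had exactly 1 such UMI, 56.6% to 72.8% of the positive CD4 and 58.4% to 76.3% of the positive CD8 cells of a library. Cells with 2 or more made up 19.0% and 22.7% of CD4 cells on day 4 against 4.57% to 8.23% in the others, and 17.7% and 18.9% of CD8 cells against 3.28% to 7.58%. No cell type that lacks these genes was measured, so the part of free RNA in these shares was not tested. In the negative cells alone, 8 members were higher on day 4 in CD4 cells, where 8.02% of genes were, and 7 in CD8 cells, where 9.16% were. Naive-like cells had at least 2 UMIs over a list of 4 genes of naive T cells, among them Ccr7 and Lef1, and none over Ccl5, Nkg7, Cxcr6, Cxcr3, S100a4 and Itgb1. Of the 4 naive genes, 1 (Ccr7) exceeded all others in both day 4 libraries, in either class. Naive-like cells were 23.7% and 30.2% of CD8 cells on day 4 against 14.9% to 23.4%, and 55.3% and 73.9% of CD4 cells against 58.8% to 72.7%. In naive-like cells alone, 7 members were higher in CD4 cells, where 8.3% of genes were, and 6 in CD8 cells, where 6.66% were. Dusp5 in naive-like CD4 cells measured 124 and 126 CPM on day 4 and 11.7 to 30.2 CPM in the 6 other libraries. Rgs1 measured 158 and 208 CPM against 15.7 to 50.7 CPM.

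Experienced cells had at least 2 UMIs over the second of these lists and none over the first. In experienced CD8 cells the day 4 libraries lay above all others in 6 members, where 5.59% of genes averaging at least 1 CPM did, but not in Dusp6, Dusp10 and Spry1. For Dusp10 the day 4 values of 38.8 and 57.4 CPM fell within the 34.6 to 60.0 CPM of the other libraries. In experienced CD4 cells its 89.9 and 169 CPM overlapped the 55.9 to 91.7 CPM elsewhere. In naive-like CD8 cells its 191 and 203 CPM lay above the 74.2 to 119.9 CPM elsewhere. Dusp2 in experienced CD8 cells reached 2787 and 2913 CPM on day 4, against 329 to 729 CPM in the other 6 libraries, the highest level of any member in any of these classes.

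**Figure D2:**
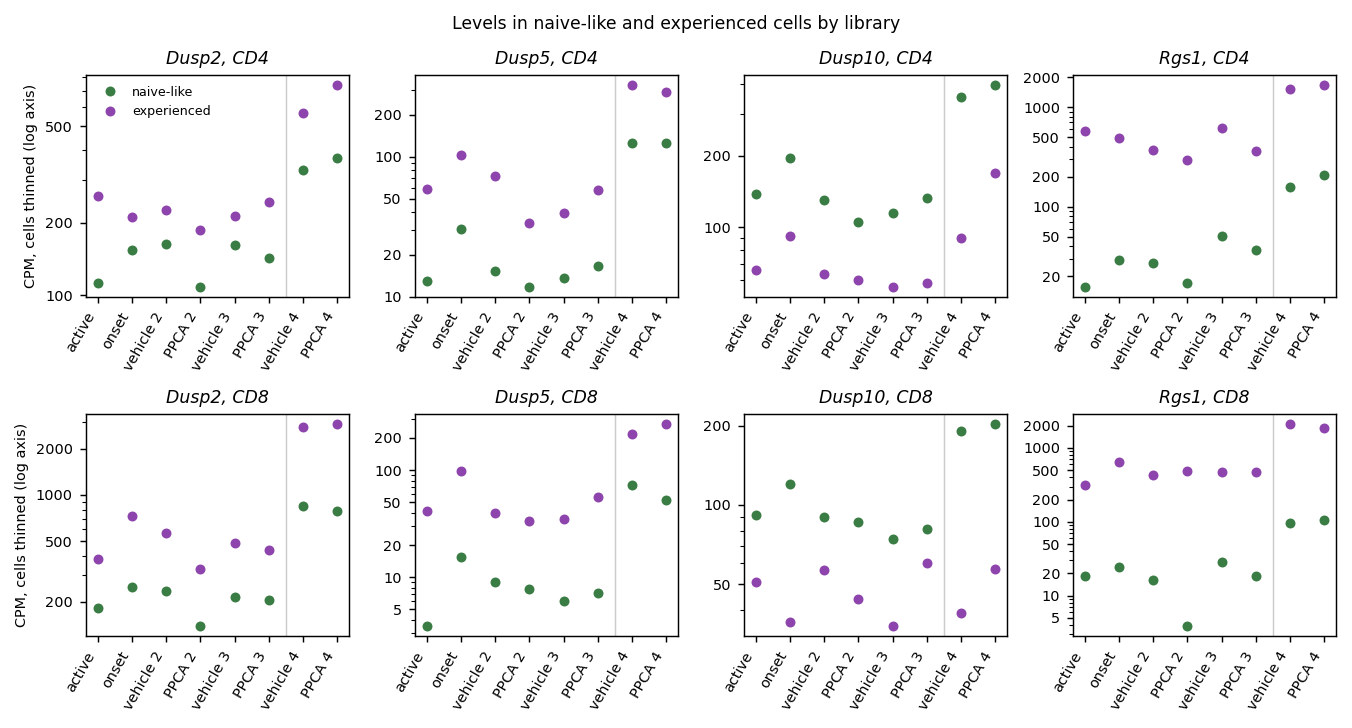
Levels of Dusp2, Dusp5, Dusp10 and Rgs1 in CPM (log axis) in naive-like (green) and experienced (purple) cells of each library, cells thinned to 2000 UMIs; each point is 1 library and class. Rgs1 is higher and Dusp10 lower in experienced cells of all 8 libraries. The 2 day 4 libraries lie above all others in both kinds of cell for Dusp2, Dusp5 and Rgs1, and for Dusp10 in naive-like cells only.

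PPCA against vehicle, the comparison of the trial, gave no call. With harvest day as a block, 0 of 9 members passed the test in CD4 cells and 0 of 9 in CD8 cells, where 0% and 0% of all genes did (edgeR). Without adjustment, 849 and 975 genes had a p under 0.05; by DESeq2 33 and 42 genes were called, and by limma-voom 0 and 2. The mean ± SD of Dusp5 in CD4 cells was 57.4 ± 67.7 CPM with vehicle and 62.5 ± 75.8 with PPCA (n = 3 each), a log2 difference of -0.00 (SE 0.110). Dusp1 stood at 161 ± 90.2 and 197 ± 215 CPM in CD4 cells, with a blocked log2 difference of -0.26 (SE 0.283). The largest differences were 0.75 (SE 0.338, adjusted p = 0.724) for Spry1 in CD4 cells and -0.42 (SE 0.267, adjusted p = 0.737) for Dusp1 in CD8 cells. A log2 difference of the treatment effect between CD8 and CD4 cells passed the test for 0 of 9 members, where 0.0158% of genes (2 of 12629) did; 675 genes had a p under 0.05 before adjustment, and 1 was called by DESeq2. It was -0.21 (SE 0.0555) for Dusp1 and -0.22 (SE 0.0497, adjusted p = 0.375, edgeR) for Dusp2.

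Of the 7 members averaging at least 10 CPM, the PPCA library differed from the vehicle library of its day in opposite directions on different days, beyond the counting intervals, in 6 in CD4 and 5 in CD8 cells. Of all genes at that level, 24.9% and 23.2% did so. Taken against the median ratio of each day, 5 members in each class did, without Dusp10 in CD4 cells, where 20.4% and 18.2% of genes did. Dusp1 in CD4 cells was at 0.521 of the vehicle level on day 2 (counting interval 0.477 to 0.569) and 0.785 on day 3 (0.734 to 0.840), but at 1.68 times on day 4 (1.62 to 1.74). Rgs2 in CD4 cells was at 0.646, 0.659 and 1.15 times, and Rgs1 at 0.772, 0.718 and 1.93 times. In CD8 cells Rgs1 was at 1.39, 0.862 and 1.49 times. Dusp6 in CD8 cells was below vehicle on all 3 days, at 0.835 (0.734 to 0.950), 0.924 (0.825 to 1.03) and 0.736 (0.667 to 0.813). Its blocked log2 difference of -0.36 (SE 0.0857) had the lowest unadjusted p of the members, 0.00343, with an adjusted p of 0.435 (edgeR). Each day has 1 library per arm, so these ratios have no replicate check, and the intervals cover counting error only. Over all genes averaging at least 10 CPM, the median log2 ratio of the pairs was 0.04, 0.18 and 0.01 in CD4 cells on days 2, 3 and 4. Without day 4, and with 1 residual degree of freedom, 2 members in CD4 cells passed the test, Dusp1 (log2 -0.74, adjusted p = 0.0131) and Rgs2 (log2 -0.72, adjusted p = 0.00901), among 107 genes in all. In CD8 cells 3 members passed without day 4, Dusp1, Dusp2 and Rgs2, with log2 differences of -0.89, -0.60 and -0.64, among 203 genes (edgeR). With each of the 3 days left out in turn, 0 to 107 genes were called in CD4 and 0 to 203 in CD8 cells, the most without day 4. Spry1 in CD4 cells was at 2.11, 0.804 and 2.85 times the vehicle level on the 3 days, from 5.70 and 12.05 CPM on day 2, 5.67 and 4.56 on day 3 and 6.95 and 19.8 on day 4. On days 2 and 4 the 2 libraries of a pair also differed in sex, and within those days sex and treatment cannot be told apart. They differed in their cells as well. On day 4, 2.81% of the CD4 cells were experienced with vehicle and 11.3% with PPCA, with stress genes at 5085 and 6789 CPM and glucocorticoid genes at 482 and 812 CPM. On day 2, 26.9% of the CD4 cells were TCR-response positive with vehicle and 12.9% with PPCA. Experienced CD8 cells were 17.0% with vehicle and 25.2% with PPCA on day 2 and 11.3% and 19.2% on day 4. On day 3 they were 8.69% and 8.42%. TCR-response positive CD8 cells on day 2 were 24.2% with vehicle and 10.3% with PPCA. The part of these differences in the ratios was not tested.

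**Figure D3:**
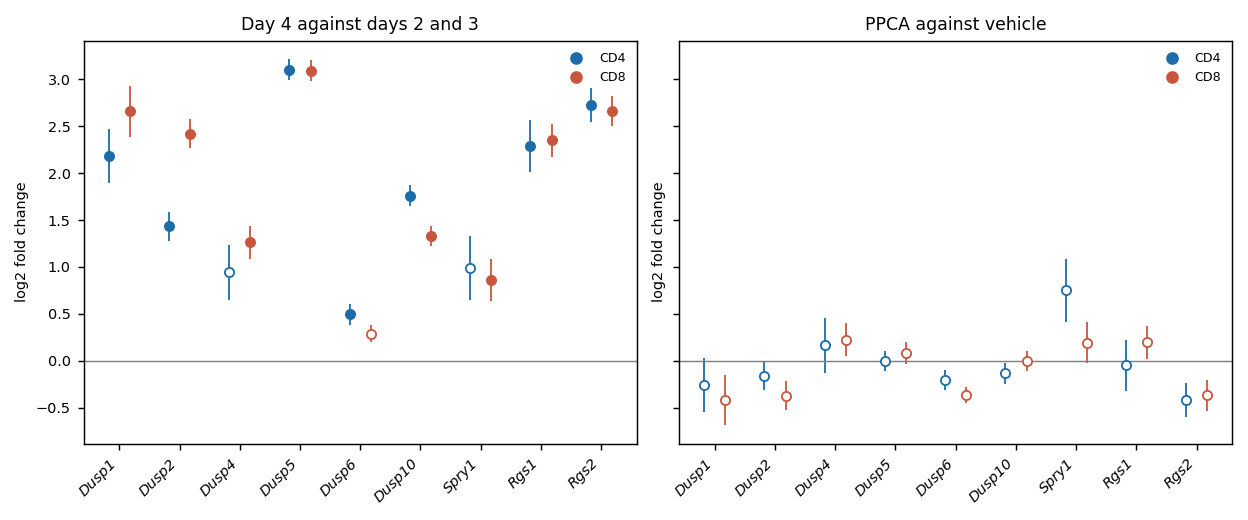
Log2 fold change of each gene for day 4 against days 2 and 3 (left) and for PPCA against vehicle (right), in CD4 (blue) and CD8 (red) cells; bars are standard errors, and filled points passed an adjusted p of 0.05. On the left, 7 CD4 and 8 CD8 points are filled, with Dusp5 the highest at 3.11 and 3.09; on the right none is.

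All 9 genes were lower in the active than in the onset library, in both classes. Of all genes averaging at least 10 CPM, 49.8% were lower in CD4 and 60.1% in CD8 cells. In CD8 cells Rgs1 measured 42.5 CPM in active and 171.6 CPM in onset diabetes, a ratio of 0.248 (counting interval 0.229 to 0.268). Dusp5 measured 9.23 and 33.4 CPM (0.277, 0.233 to 0.329) and Dusp1 30.2 and 83.5 CPM (0.362, 0.328 to 0.400). Dusp10 differed least there, at 69.2 and 88.1 CPM (0.785, 0.726 to 0.850). Of the 7 members averaging at least 10 CPM, 3 were at least 1.5-fold lower in active in CD4 cells, against 1.15% of the genes at that level, and 5 in CD8 cells, against 3.13%. The median log2 ratio over those 7 was -0.44 and over those genes 0.00 in CD4 cells, and -0.91 against -0.06 in CD8 cells. With 1 library each there is no test, and the difference is between these 2 libraries. In CD4 cells the counting intervals of Dusp4 and Spry1 included a ratio of 1, and those of the other 7 lay below it. Both libraries carried Xist, so sex did not differ between them. Other measures did differ. Among CD8 cells, 9.87% were experienced in the active and 22.4% in the onset library, and 15.1% and 24.9% were TCR-response positive. Their stress genes summed to 2317 and 4065 CPM and the genes that define experienced cells to 2286 and 5852 CPM. In CD4 cells 17.3% and 23.9% were TCR-response positive, and the stress genes summed to 2876 and 4471 CPM. Their part in the difference was not tested.

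CD8 and CD4 cells of the same library differed in most members. Dusp2 stood higher in CD8 cells of all 8 libraries, from 192 to 1174 CPM (median 284) against 122 to 418 CPM (median 164) in CD4 cells. The ranges overlapped, but within every library CD8 exceeded CD4. With library as a block the log2 difference was 1.01 (SE 0.116, adjusted p = 3.13e-06, edgeR). Dusp6 was the other member higher in CD8 cells, by a log2 of 0.27, so that 2 of 9 members were higher where 23% of all genes were. Lower in CD8 cells were 5 of 9, where 22.3% of genes were: Rgs2 (log2 -0.98), Dusp10 (-0.88), Spry1 (-0.86), Dusp1 (-0.85) and Dusp5 (-0.35). Rgs2 was at 16.1 to 122 CPM (median 27.1) in CD8 and 27.9 to 269.6 CPM (median 58.8) in CD4 cells and lower in CD8 cells of all 8 libraries. Spry1 was lower in 7 of 8 libraries. Neither Dusp4 (log2 -0.28, adjusted p = 0.150) nor Rgs1 (log2 0.30, adjusted p = 0.201) passed the test, and Rgs1 was higher in CD8 cells of 4 libraries and lower in the other 4.

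The 2 classes differ in their share of experienced cells, which was 2.58% to 11.3% of CD4 and 8.42% to 25.2% of CD8 cells. Among naive-like cells alone, Rgs1 was lower in CD8 than in CD4 cells (log2 -0.77, in 7 of 8 libraries), and among experienced cells alone it was higher (log2 0.26, adjusted p = 0.030, in 6 of 8). Dusp2 was higher in CD8 cells of all 8 libraries in naive-like and in experienced cells, with a log2 of 1.60 in the latter. Dusp6 no longer differed by the test in either, at a log2 of 0.01 in naive-like (adjusted p = 0.951) and 0.33 in experienced cells (adjusted p = 0.178). Dusp5 was lower in naive-like CD8 cells (log2 -0.98), while in experienced cells its -0.19 did not pass (adjusted p = 0.270). Spry1 had a log2 of -0.54 in naive-like cells (adjusted p = 0.432, edgeR) and is not read in experienced cells, where CD8 libraries held 4 to 17 of its UMIs.

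**Figure D4:**
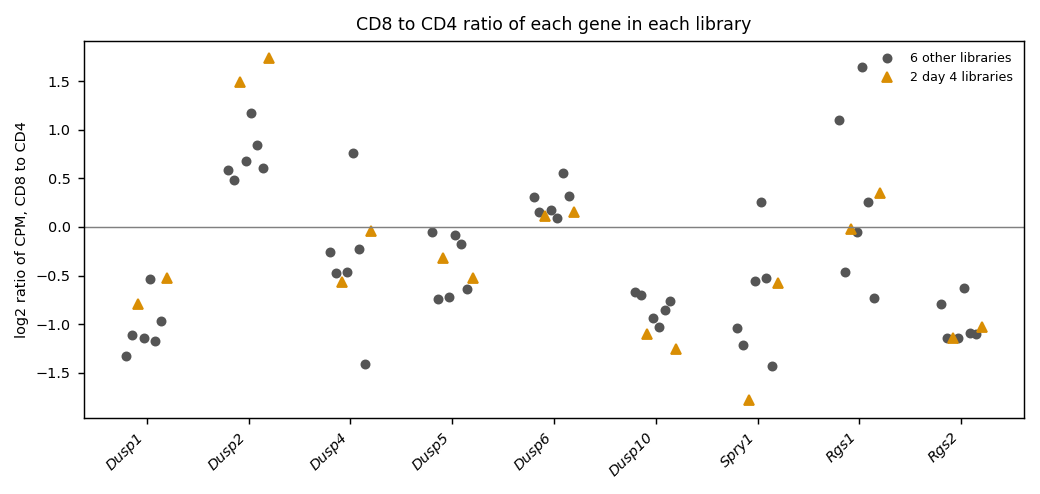
Log2 ratio of the CD8 to the CD4 level (CPM) of each gene in each library; dots are the 6 libraries of days 1 to 3 and triangles the 2 of day 4. Dusp2 and Dusp6 lie above 0 in all 8 libraries and Dusp1, Dusp5, Dusp10 and Rgs2 below 0 in all 8, with the day 4 triangles of Dusp2 above its other points.

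The levels of most brakes differed between experienced and naive-like cells. Rgs1 in CD4 cells measured 15.7 to 208 CPM (median 33.0) in naive-like and 293 to 1677 CPM (median 533) in experienced cells, with no overlap. In CD8 cells it went from 3.85 to 104.7 CPM (median 21.5) to 318 to 2112 CPM (median 484). The log2 difference was 3.30 (SE 0.0811, adjusted p = 1.64e-91) in CD4 and 4.19 (SE 0.0938, adjusted p = 6.06e-38, edgeR) in CD8 cells, and it was higher in all 8 libraries of both. Spry1 in CD4 cells rose from 0.701 to 6.54 CPM (median 1.88) in naive-like to 6.58 to 72.6 CPM (median 42.7) in experienced cells. Its log2 difference was 3.78 (SE 0.256), the highest of the 9 in CD4 cells. It rests on 1 to 52 UMIs per library in experienced and 3 to 23 in naive-like cells. In CD8 cells Spry1 was not tested, because its counts were too low for the filter, with at most 17 UMIs in a library. Dusp4 rose by a log2 of 3.26 (SE 0.317) in CD4 and 3.03 (SE 0.327) in CD8 cells and was higher in all 8 libraries of each. In CD4 cells it had 2 to 32 UMIs per library in experienced and 3 to 27 in naive-like cells. In naive-like CD8 cells Dusp4 had no UMI in 2 libraries, which allows up to 2.61 CPM in the active and 3.85 CPM in the PPCA library of day 2.

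The other phosphatases split. Dusp5 rose by a log2 of 1.20 in CD4 and 1.97 in CD8 experienced cells, Dusp2 by 0.45 and 1.23, and Rgs2 by 0.54 and 1.06. Dusp1 was higher in CD4 cells (log2 0.58). In CD8 cells its fitted log2 difference after TMM scaling was -0.01 (adjusted p = 0.960, edgeR), while its CPM was higher in experienced cells of 6 of 8 libraries, with a median log2 ratio of 0.46. Dusp6 was higher in CD8 (0.74) and did not pass in CD4 cells (0.29, adjusted p = 0.144, edgeR). Dusp10 went the other way. It measured 105 to 399 CPM (median 136) in naive-like and 55.9 to 169 CPM (median 64.7) in experienced CD4 cells, and 74.2 to 203 CPM (median 90.7) against 34.6 to 60.0 CPM (median 47.4) in CD8 cells. It was lower in experienced cells of all 8 libraries, with a log2 difference of -1.52 (SE 0.0964) and -1.61 (SE 0.122). The ratios of its CPM within libraries were smaller, with a median log2 of -1.08 in CD4 and -1.03 in CD8 cells. For Dusp2 and Dusp6 in CD4 cells such ratios were above the fitted values, with medians of 0.77 and 0.70. In all, 7 of 9 members were higher in experienced CD4 cells, where 14.8% of genes were, and 1 was lower, where 15.9% were. In CD8 cells 6 of the 8 members tested were higher, where 19.8% of genes were, and 1 lower, where 19.1% were. Markers of other cells moved with this split. NK cell genes summed to 435 to 574 CPM in experienced against 103 to 216 CPM in naive-like CD8 cells, and further myeloid genes to 157 to 264 against 93.5 to 129 CPM. In CD4 cells the myeloid genes summed to 169.9 to 269.7 against 105 to 132 CPM. Foxp3, the factor of regulatory T cells, measured 30.7 to 93.9 CPM in experienced against 3.56 to 11.5 CPM in naive-like CD4 cells. The further B cell markers summed to 25.8 to 104 against 116 to 227 CPM in CD8 cells. The 6 B and myeloid genes were held low by the filter, which allowed at most 1 UMI over them in a kept cell. They stood at 0 to 8.38 in experienced and 1.70 to 3.98 CPM in naive-like CD4 cells and at 2.11 to 14.5 and 7.65 to 25.2 CPM in CD8 cells. The part of these markers in the difference was not tested.

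The other genes of these paths are read against the same shares of all genes, 14.8% higher and 15.9% lower in CD4 and 19.8% and 19.1% in CD8 cells. Of 26 MAP kinase cascade genes tested, 5 were higher and 4 lower in experienced CD4 cells, close to those shares, and of 25 in CD8 cells 8 were higher and 7 lower. Of the other DUSP, Sprouty, Spred and RGS genes, 3 were higher and 5 lower of 16 tested in CD4 cells (median log2 -0.24) and 3 higher and 4 lower of 13 in CD8 cells (median -0.22). Among those higher, Rgs16, which acts on Gi and Gq, had a log2 difference of 4.54 in CD4 and 4.83 in CD8 cells, and Rgs3 of 1.20 and 1.33. Of 12 G protein subunits tested in CD4 cells 6 were higher, among them Gnaq (log2 2.45), and of 11 in CD8 cells 7 were higher and 1 lower, with Gng2 at a log2 of 2.60. Of 13 receptors tested in CD4 cells 10 were higher and 2 lower, with the chemokine receptor Ccr2 at a log2 of 7.68, and of 11 in CD8 cells 5 were higher and 3 lower. The list genes that defined the classes (Ccr7, Cxcr3 and Cxcr6 among the receptors) were left out of these counts.

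CD4 cells with a Foxp3 UMI were 733 of the thinned cells, or 59 to 133 per library. Rgs1 in them measured 301 to 1290 CPM (median 535), against 37.6 to 487 CPM (median 68.3) in cells without a Foxp3 UMI, and was higher within all 8 libraries although the ranges overlap (log2 2.23, SE 0.0778, adjusted p = 4.05e-176, edgeR). Dusp4 measured 15.96 to 84.7 CPM (median 45.7) against 2.25 to 12.8 CPM (median 3.47), with no overlap and a log2 difference of 3.00 (SE 0.289), from 3 to 14 UMIs per library. Spry1 was higher by a log2 of 1.60, Dusp1 by 0.88 and Rgs2 by 0.50. Dusp10 and Dusp6 were lower in all 8 libraries, both by a fitted log2 of -0.93. The ratios of their CPM within libraries were smaller, with a log2 of -0.91 to -0.29 (median -0.46) for Dusp10 and -0.84 to -0.30 (median -0.53) for Dusp6, which had 2 to 5 UMIs per library in Foxp3+ cells. Dusp2 (-0.13) and Dusp5 (0.02) did not pass. Thus 5 of 9 members were higher, where 7.36% of genes were, and 2 lower, where 11.5% were. Other lists moved with this split. The naive list summed to 512 to 1186 CPM in Foxp3+ and 1532 to 2058 CPM in the other cells, the experienced list to 483 to 1439 against 253 to 1008 CPM, and the further B cell markers to 191 to 509 against 105 to 222 CPM. The 6 B and myeloid genes stood at 0 to 20.0 against 1.91 to 4.196 CPM. The part of these lists in the difference was not tested. The median over all genes was -0.10 here, and scaling with the size factors of DESeq2 turned the Dusp2 value to 0.01. With 2 UMIs of Cd4 required for the gate, the calls of Spry1 (adjusted p = 0.723) and Rgs2 (0.254) were lost, as was that of Dusp6 under DESeq2 (adjusted p = 0.0547). A cell without a Foxp3 UMI may still be a regulatory cell at this depth.

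**Figure D5:**
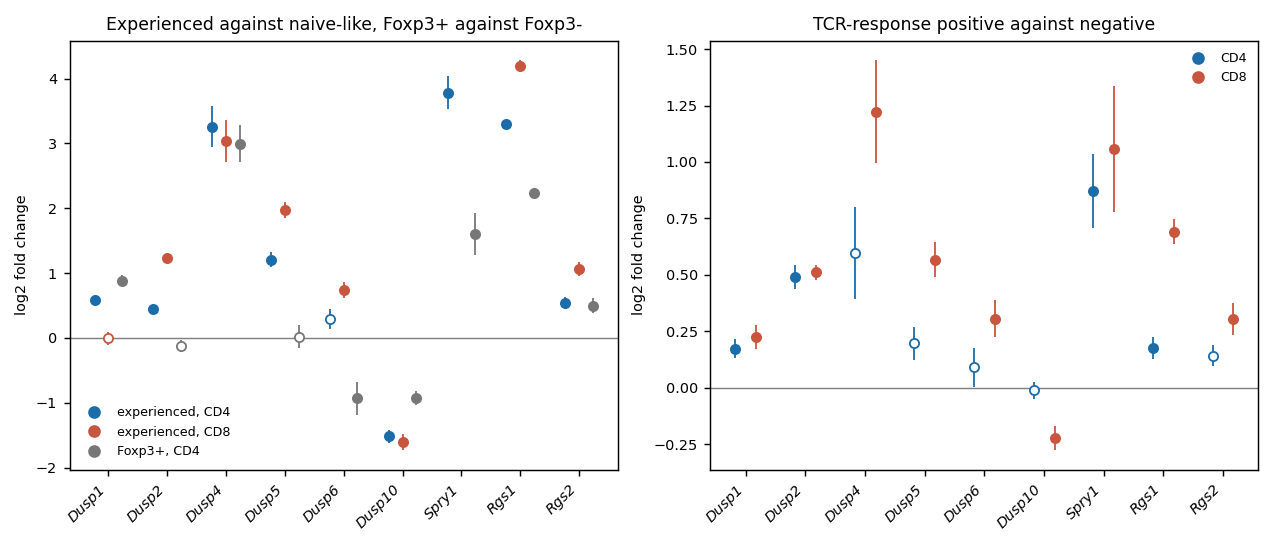
Log2 fold change of each gene between classes of cells within libraries, experienced against naive-like and Foxp3+ against Foxp3- cells (left) and TCR-response positive against negative cells (right, narrower axis); bars are standard errors and filled points passed an adjusted p of 0.05. Rgs1 and Dusp4 are high and Dusp10 is low in all 3 comparisons on the left; on the right 4 CD4 and 9 CD8 points are filled, with Dusp10 in CD8 cells the one below 0.

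Cells with transcripts of the NR4A and EGR genes, which receptor signals induce, were compared with the other cells. In CD8 cells 8 of 9 members were higher in TCR-response positive than negative cells, where 2.79% of all genes were, and 1 was lower, where 2.49% were. Dusp2 measured 289 to 1616 CPM in positive and 193 to 1077 CPM in negative CD8 cells, ranges that overlap. Within each of the 8 libraries the positive cells were higher, by a log2 of 0.51 (SE 0.034, adjusted p = 4.6e-22). Rgs1 was higher by a log2 of 0.69 (SE 0.0544, adjusted p = 5.75e-18), Dusp4 by 1.22, Spry1 by 1.06 and Dusp5 by 0.57, in 7 or 8 of the 8 libraries. Dusp6, Rgs2 and Dusp1 differed by a log2 of 0.31, 0.31 and 0.23, and Dusp10 by -0.22, each less than 1.5-fold (edgeR).

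In CD4 cells 4 of 9 were higher, where 2.19% of genes were, and none was lower. Spry1 differed by a log2 of 0.87 (SE 0.165) and Dusp2 by 0.49 (SE 0.0534), both in all 8 libraries, and Rgs1 by 0.18 and Dusp1 by 0.17. The calls of Dusp1 and Rgs1 were lost with DESeq2 (adjusted p = 0.123 and 0.498) and with 2 UMIs for the gate (0.427 and 0.354), that of Dusp1 also without the vehicle library of day 4 (adjusted p = 0.188), and that of Rgs1 without the vehicle (0.226) or the PPCA library of day 3 (0.0683, edgeR). DESeq2 kept 2 of the 4 CD4 and 5 of the 9 CD8 calls. In CD8 cells the call of Spry1 was lost without the onset library (adjusted p = 0.109) or the PPCA library of day 2 (0.125, edgeR), where it stood at 13.9 and 22.1 CPM in positive cells. The calls of Dusp6 (adjusted p = 0.0537) and Rgs2 (0.390) were lost without the PPCA library of day 4, and that of Dusp1 without the vehicle library of day 4 (0.0559, edgeR). Positive CD8 cells also carried more of the experienced genes, at 3446 to 10907 against 1922 to 6775 CPM, and more stress transcripts, at 2594 to 6161 against 2159 to 5432 CPM. Their part in the difference was not tested. Of the 10 ERK-induced early genes tested outside the defining list, 8 were higher in positive CD4 and 6 in positive CD8 cells, and Rgs16 again rose, by a log2 of 0.64 and 1.33.

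Whether these effects differ between CD8 and CD4 cells was tested directly. The day 4 rise differed for 3 of 9 members, where 0.491% of genes did. It was larger in CD8 cells for Dusp2 (log2 0.99, SE 0.0514, adjusted p = 3.8e-07) and Dusp1 (0.49, SE 0.0562, adjusted p = 0.00104), and smaller for Dusp10 (-0.44, SE 0.0538, adjusted p = 0.00184). The TCR-response difference was larger in CD8 cells for 1 of 9, Rgs1 (log2 0.51, SE 0.0849, adjusted p = 0.000681, edgeR), where 0.102% of genes differed. That call was lost under DESeq2, with 2 UMIs required over the NR4A and EGR list (adjusted p = 0.327), without the PPCA library of day 4 (adjusted p = 0.123) and without both day 4 libraries (0.384, edgeR). The difference of experienced from naive-like cells differed for 5 of the 8 members tested in both classes, where 8.39% of such genes did. Spry1, whose counts were too low in CD8 cells, is left out here. It was larger in CD8 cells for Rgs1 (0.84, SE 0.17), Dusp2 (0.74, SE 0.103), Dusp5 (0.74, SE 0.174) and Rgs2 (0.48, SE 0.147), and smaller for Dusp1 (-0.63, SE 0.161). Of these, the calls of Dusp5 (adjusted p = 0.188) and Rgs2 (0.0686) were lost without the PPCA library of day 4 (edgeR). The call of Rgs2 was also lost without the vehicle library of day 2 (adjusted p = 0.0517) or of day 4 (0.473, edgeR). With 2 UMIs for the gate, the call of Dusp1 was lost (adjusted p = 0.0520, edgeR), and DESeq2 called 1 of the 5, Dusp2.

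Over the 16 sums of 8 libraries and 2 classes, the members followed each other to different degrees. Dusp1 and Rgs2 had a Pearson correlation of 0.962 on the log2(CPM + 1) scale, Dusp10 and Rgs2 0.939 and Dusp5 and Rgs2 0.894. Dusp6 was near 0 against Spry1 (-0.01), Dusp10 (0.07) and Dusp1 (0.11). The 16 points share libraries, depth and the day 4 rise, so the values are a description. Among 7265 genes averaging at least 10 CPM, the most alike to Dusp1 were Junb (0.980), Ppp1r15a (0.975) and Rgs2 (0.962). For Dusp5 they were Hspa5 (0.995), Dbf4 (0.983) and Arf4 (0.978), for Rgs2 Pim1 (0.978), Acot2 (0.972) and Nfkbiz (0.970), and for Dusp10 Dhx40 (0.968), Slc25a25 (0.964) and Acot2 (0.959). For Dusp2 they were Slc3a2 (0.938), Nr4a2 (0.914) and Ubald2 (0.902), and for Rgs1 Bhlhe40 (0.966), Ptrhd1 (0.949) and Map1lc3b (0.947). The low genes Spry1 and Dusp4 were most like Cd200 (0.938), Icos (0.935) and Jmjd1c (0.926), and Ctla4 (0.913), Sfr1 (0.913) and Ypel3 (0.908). Dusp6 had no close match, with Arpc2 at 0.790, Mpc2 at 0.778 and Pdcd6ip at 0.747.

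The authors' deposited table of cluster markers lists 8 of the 9 genes, in 16 rows over 6 of its 7 clusters, and Dusp6 in none. In the authors' deposited table, Dusp10 marked the cluster named CD4 Naive, with a log2 fold change of 0.56 and detection in 55.2% of its cells. Spry1 and Dusp4 are listed there for CD4 Treg alone, at 0.49 and 0.45, detected in 12.1% and 12.7% of its cells. Rgs1 is listed in the authors' deposited table for CD8 TRM TEM (2.37), CD4 Treg (1.82) and CD4 Th17 (1.42). Dusp2 is listed there for CD8 TRM TEM (1.97, in 80.2% of cells), CD4 Th0 and CD8 TCM. These clusters were named by the authors and came from the same libraries, so they are no independent check of the values above.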

How the data were processed

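The deposited matrices hold counts: UMIs per gene and cell barcode, not normalised. The file headers name cellranger 6.0.0, while the submitters' processing notes name Cell Ranger 6.1.2 and Seurat. The genome build is not given in the sources used here. Per cluster, the authors' deposited marker table gives a log2 fold change, p-values and the fraction of cells with a gene, printed here as percent.

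Barcodes with at least 500 genes and under 10% mitochondrial UMIs were kept, with at least 2 UMIs over the 6 T cell genes and at most 1 over the 6 B and myeloid genes. One gene of the naive list is not reported here. No doublet caller was run. The gates leave out cells with both Cd4 and Cd8 transcripts, and an alternative removed the barcodes with the most UMIs, 0.8% per 1000 barcodes. UMIs were summed per library and class and fitted with the quasi-likelihood test of edgeR 4.0.16 (R 4.3.3), with TMM scaling, filterByExpr and Benjamini-Hochberg adjustment over all genes at 0.05. Treatment was fitted with harvest day as a block, and classes of cells with library as a block. The deviations of the 2 libraries of a day from the means of their arms correlated across genes at 0.247, 0.549 and 0.507 in CD4 and 0.268, 0.684 and 0.511 in CD8 cells (days 2, 3 and 4), so day pairs the libraries.

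The 9 genes and the gene lists were chosen with earlier results of these data known. Named besides them were the 3 genes most correlated with each member and, per list and comparison, at most 2 genes past the threshold with the largest change and at least 10 CPM. Of these, those that help to place the members are printed. The tests of a difference between CD8 and CD4 cells in the day 4, TCR-response and experienced effects were added after seeing the data, and were read only for members that passed the filter in each class. Alternatives used DESeq2 1.42.0, limma-voom (limma 3.58.1), other filters and gates, a sex term and left-out libraries. Intervals of single libraries are exact Poisson, or exact binomial for ratios, at 95%, and cover counting error only.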

Additional observations from a re-analysis of the deposited data

Results flagged for a closer look

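Differences between CD8 and CD4 cells came from a test of the difference itself (edgeR). For day 4 against days 2 and 3, the log2 fold change in CD8 minus that in CD4 cells was 0.99 for Dusp2, 0.49 for Dusp1 and -0.44 for Dusp10. For TCR-response positive against negative cells it was 0.51 for Rgs1. For experienced against naive-like cells it was 0.84 for Rgs1, 0.74 for Dusp2, 0.74 for Dusp5, 0.48 for Rgs2 and -0.63 for Dusp1.

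Several genes had a lower level with PPCA than with vehicle on days 2 and 3 and a higher one on day 4, each beyond the counting interval. There is 1 library per arm and day, and the difference between days was not tested. In CD4 cells the ratio of PPCA to vehicle on days 2, 3 and 4 was 0.521, 0.785 and 1.68 for Dusp1, 0.720, 0.940 and 1.26 for Dusp2, 0.772, 0.718 and 1.93 for Rgs1, and 0.646, 0.659 and 1.15 for Rgs2. In CD8 cells it was 0.469, 0.712 and 1.40 for Dusp1, 0.603, 0.862 and 1.06 for Dusp2, and 0.791, 0.637 and 1.06 for Rgs2.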

How the results depend on the processing

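Of the values of members that passed the test, recomputed 1062 times under the alternatives, 982 kept their direction and passed again, 80 kept their direction and no longer passed, and none turned. Of 574 values of members that had not passed, 56 turned and 32 passed. The rest are counts of genes or members past the threshold and log2 values, grouped by setting, and except where said the cause was not tested.

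For PPCA against vehicle (0 genes in CD4 and 0 in CD8 cells), DESeq2 called 33 and 42 genes, limma-voom 2 in CD8, no low-count filter 138 and 120, and a sex term 99 and 68. TCR-response negative cells alone gave 2 and 12 genes, naive-like cells alone 24 in CD8, and removal of the barcodes with the most UMIs 2 in CD8. With days left out in turn, 0 to 107 genes and 0 to 2 members were called in CD4 cells and 0 to 203 genes and 0 to 3 members in CD8 cells, the highest without day 4. Across these, Dusp1 in CD4 ranged from -0.74 to 0.11, Dusp2 from -0.38 to 0.020, Dusp4 from -0.17 to 0.58, Dusp5 from -0.080 to 0.13 and Rgs1 from -0.53 to 0.25, and in CD8 Dusp5 from -0.075 to 0.20 and Dusp10 from -0.10 to 0.12. With no replicate block, where the day enters the spread, the values turned to 0.25 (Dusp1), 0.00337 (Dusp2), 0.067 (Dusp5) and 0.46 (Rgs1) in CD4 cells and to 0.13 (Dusp1) and 0.067 (Dusp10) in CD8 cells. In TCR-response negative cells Dusp4 was -0.0144 and Rgs1 0.0195 in CD4 and Dusp10 0.0175 in CD8. Dusp5 in CD4 was 0.0123 with limma-voom and 8.6e-05 with 2 UMIs for a gate, and Rgs1 in CD4 0.00417 without the highest barcodes. In CD8 cells Dusp5 was -0.0221 without the highest barcodes and -0.33 in naive-like cells, Rgs1 -0.23 in naive-like cells, and Dusp10 0.000498 with DESeq2 size factors, 0.00155 with DESeq2, 0.00281 with limma-voom, 0.00584 with no filter, 0.061 with 2 UMIs for a gate and 0.025 in naive-like cells.

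For day 4 (1681 genes in CD4, 2035 in CD8), no filter gave 2532 genes in CD4, a sex term 2887 and 3263, and naive-like cells alone 882 in CD8, where fewer cells enter. Leaving out day 2 or day 3 gave 911 to 1003 genes in CD4 and 380 to 1454 in CD8. Day 4 cannot be left out of its own comparison.

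For CD8 against CD4 (5806 genes), no replicate block gave 1978 genes and 0 members, naive-like cells alone 1929 and experienced cells alone 1355, with Rgs1 at -0.77 in naive-like cells. For the PPCA effect in CD8 minus CD4 (2 genes), DESeq2 called 1 gene, no filter 89 and 1 member, and 2 UMIs for a gate 36. Leaving out a day gave 13 to 87 genes and 0 to 1 member, with Dusp4 from -0.34 to 0.37, Dusp5 from -0.013 to 0.18, Rgs1 from -0.11 to 0.52 and Rgs2 from -0.081 to 0.067. Dusp4 was 0.079 with DESeq2, and Rgs2 0.0142 with DESeq2, 0.00343 with no filter and 0.0231 with 2 UMIs for a gate.

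For TCR-response cells (440 genes in CD4, 547 in CD8), DESeq2 called 254 and 275 genes, with 2 and 5 members, and no replicate block 9 and 10 genes, with 0 and 0 members. In CD4 cells 2 UMIs for a gate gave 266 genes and 2 members, and in CD8 cells leaving out both day 4 libraries gave 336 genes. Dusp10 in CD4 was 0.0018 with limma-voom, 0.020 without the block, 0.0135 with 2 UMIs for a gate, and -0.053 to 0.010 with a library left out. For experienced cells (3205 and 3274 genes), no replicate block gave 1840 and 1987 genes and 4 and 4 members, and 2 UMIs for a gate 2104 genes in CD4. Dusp1 in CD8 was 0.081 with DESeq2, 0.068 with 2 UMIs for a gate, 0.19 without both day 4 libraries, and -0.070 to 0.094 with a library left out. For Foxp3+ cells (2126 genes), no replicate block gave 1160 genes and 4 members, and 2 UMIs for a gate 1158 genes. Dusp2 was 0.0114 with DESeq2 size factors and 0.00784 with DESeq2, and Dusp5 -0.14 without the block and -0.057 to 0.17 with a library left out.

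For the CD8 minus CD4 difference of the day 4 effect (62 genes), DESeq2 gave 19 genes, no filter 188, 2 UMIs for a gate 98 and a day left out 40 to 196. For that of the TCR-response effect (11 genes), DESeq2 gave 0 genes and 0 members, limma-voom 65 genes, no filter 38, 2 UMIs over the list 2 genes and 0 members, no day 4 libraries 0 and 0, and a library left out 0 to 24 genes and 0 to 1 member. For that of the experienced effect (5 members) DESeq2 called 1 member and a library left out 3 to 5. Dusp4 and Spry1 have the fewest UMIs of the members.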
